A study of Homo sapiens with 48 samples.

Results

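The genes described here are 8 calcium-responsive protein genes of a CRISPR knockout library: the S100 genes S100A2, S100A7, S100A8, S100A11, S100A14 and S100A16, and the annexins ANXA2 and ANXA5. They were taken by name from the 327 genes that each of the 5 deposited tables holds, so they are 8 of 327. The list goes by name and has no threshold on a measured value, but it was drawn up with earlier results of these data known. In this screen a pool of cells, each meant to lose 1 gene, was counted through its guide RNAs before and after growth. The later samples were 16 SCC13 tumors, 10 CAL27 tumors, 8 A431 tumors, 2 CAL27 cultures and 2 A431 cultures, and each of these 5 sets was compared with 2 initial samples of its line.

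All 3 lines are established human squamous carcinoma lines, SCC-13 (SCC13) from skin, CAL27 from tongue and A-431 (A431) from epidermis, and all of them, initial samples included, stably expressed the Cas9 nuclease from a lentivirus. Each carried the pooled guide virus, added at a multiplicity of infection of 0.3 and selected with puromycin. Cultures were kept for 3 weeks. For tumors, between 2000000 and 4000000 cells in Matrigel were placed in the flanks of mice that lack a working adaptive immune system, and tumors were collected after about 2 months. SCC13 cells went into NOD.Cg-Prkdcscid Il2rgtm1Wjl/SzJ mice, which also lack natural killer cells, and CAL27 and A431 cells into SHO mice, which keep them. Mouse strain and cell line therefore cannot be told apart in SCC13. The labels leave out whether several tumors came from 1 mouse or both cultures from 1 flask, so a p-value here reflects only how much these samples vary, and part of that may be technical.

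S100 proteins are small EF-hand proteins that pair up, change shape when they bind calcium and then dock onto other proteins. Annexins bind acidic membrane lipids when calcium rises, and several annexins form complexes with an S100 pair. Most human S100 genes lie in one cluster on chromosome 1, beside the genes of the cornified envelope, and several are switched on in stressed, inflamed or malignant keratinocytes.

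Each value is the deposited log fold change of a gene, later over initial cells, minus the median of its column over the 327 genes, where a column stands for 1 tumor or culture. No source used here states the log base, and values are therefore given in log units, without conversion to folds. A negative value means that the knockout lost ground to the median knockout of the library. Before this centring the column medians ran from -2.67 to 0.53 in SCC13 tumors, from -1.50 to -0.56 in CAL27 tumors, from -0.55 to -0.07 in A431 tumors, from -0.49 to -0.47 in CAL27 culture and from -0.37 to -0.36 in A431 culture, where 0 is the level of the non-targeting guides. Value column 3 was the 1 SCC13 tumor with a median above 0, and results are also given without it below. The tables hold no read counts, so depth is unknown. In SCC13 tumors between 8 and 140 genes a column held shared-difference values. There 4 or more genes differed by the same amount between 2 columns to 6 decimals. Such values are taken as bounds on the loss, a reading that was not tested. They are not 1 level, with S100A2 at -1.36 and S100A16 at -0.27 in value column 7. Nor are they always low in rank, with S100A8 in value column 9 at rank 158 of 327. They were found for S100A11 in 11 of 16 SCC13 tumors, S100A2 in 6, S100A8 in 5, and S100A16 and ANXA5 in 4 each. None of the 8 genes had such values in the other tables.

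The 8 genes did not move as a block. In SCC13 tumors 2 of the 8 were lower and 3 were higher at an adjusted p under 0.05 in a limma fit against 0, where 23.9% and 23.5% of all library genes were. In CAL27 tumors 3 were lower and 0 were higher, against 22% and 18.7% of all genes. In A431 tumors 2 were lower and 0 were higher, against 11.9% and 7.95%. In CAL27 culture 0 were lower and 1 was higher, against 18.7% and 4.89%, and in A431 culture 0 were lower and 1 was higher, against 11.3% and 2.14%. At an unadjusted p under 0.05 no further member passed in tumors. In each culture set 1 further member was lower, where 82 of all genes were lower in CAL27 and 70 in A431. The median of the 8 means was 0.11 in SCC13 tumors, -0.37 in CAL27 tumors, -0.23 in A431 tumors, 0.02 in CAL27 culture and 0.23 in A431 culture, while the median over all genes lay between -0.02 and 0.02. The counts are read as a description of the 8 genes and as nothing particular to the family. Measured from the control guides in place of the median gene, the split changed and 0 members were higher in any set. In SCC13 tumors 5 members were then lower (S100A2, S100A8, S100A11, S100A16 and ANXA5), where 220 of all genes were lower and 13 higher, against 78 and 77 after centring. In CAL27 tumors 7 were lower (all but S100A7), beside 164 and 18 of all genes, and in A431 tumors the 2 were S100A8 and S100A16, beside 73 and 7. In CAL27 culture 7 were lower (all but ANXA5), beside 293 and 0, and in A431 culture 1 (S100A11), beside 136 and 1.

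**Figure D1:**
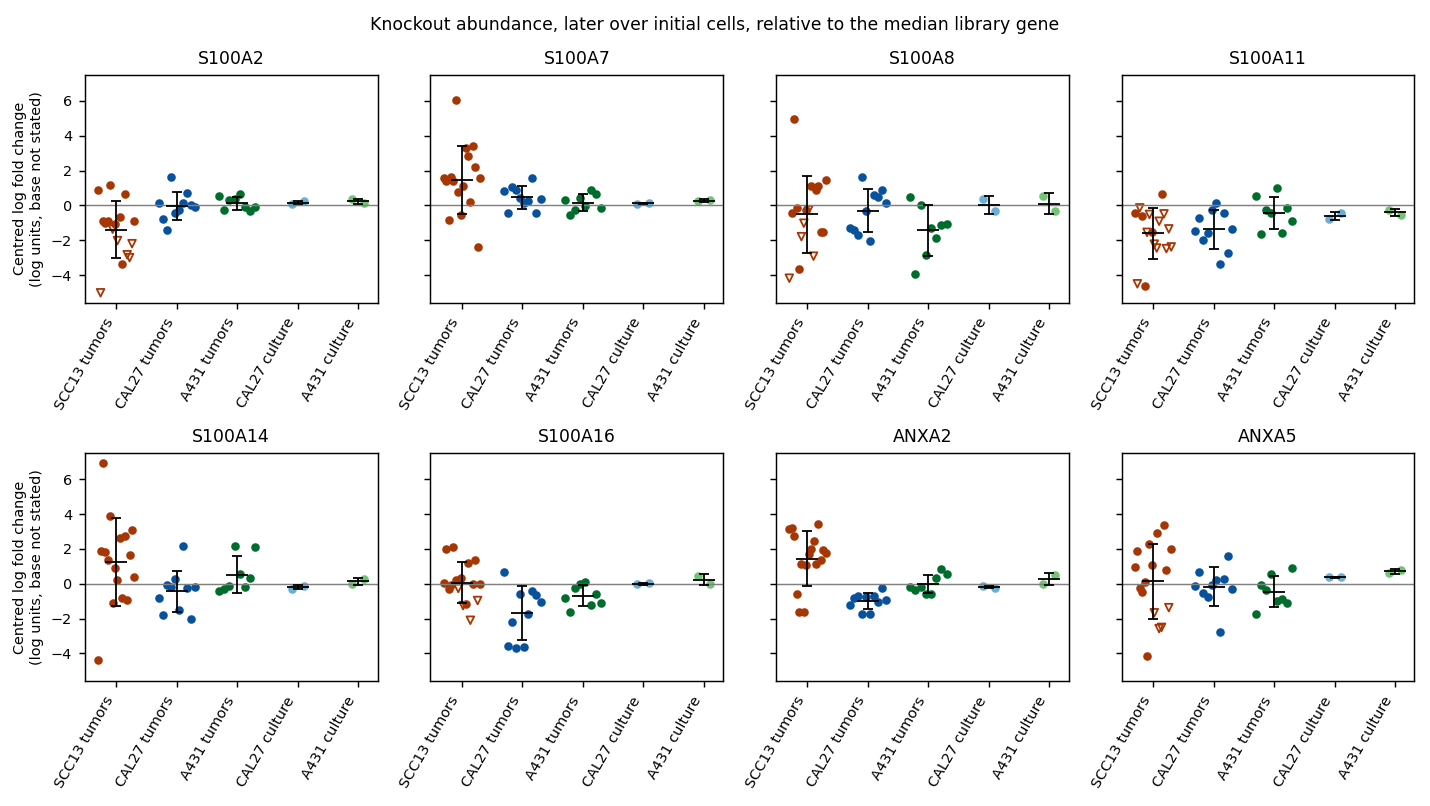
Centred log fold change of each member (log units, base not stated) in every SCC13 tumor, CAL27 tumor, A431 tumor, CAL27 culture and A431 culture. Points are single tumors or cultures, open triangles are shared-difference values, black bars are the mean and SD, and the grey line is the median library gene. S100A11 lies below the line in 30 of 34 tumors, and ANXA2 lies below it in 10 of 10 CAL27 tumors but above it in 13 of 16 SCC13 tumors.

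S100A11, an S100 protein of epithelial cells that binds annexin A1 and takes part in calcium-dependent growth control of keratinocytes, was the member whose knockout was below the median gene most often, in 30 of 34 tumors and 4 of 4 cultures. In SCC13 tumors its lowest value was -4.61, its median -1.43 and its highest 0.66. In CAL27 tumors these values were -3.38, -1.41 and 0.17, and in A431 tumors they were -1.64, -0.35 and 1.03. Apart from 1 tumor in SCC13, 1 in CAL27 and 2 in A431, all tumors were low. In SCC13, however, 11 of the 16 values were shared-difference values, taken as bounds. The SCC13 sign count, mean, SD and test therefore rest mostly on such bounds. The means were -1.59 ± 1.47 log units in SCC13 tumors (SD, n = 16) and -1.37 ± 1.12 in CAL27 tumors (SD, n = 10), and both passed the limma test, with adjusted p = 0.00201 and 0.00348. In A431 tumors the mean of -0.42 ± 0.94 (SD, n = 8) did not pass (limma adjusted p = 0.32). The cultures stood at -0.78 and -0.42 in CAL27 and at -0.25 and -0.55 in A431. Both lines were thus low in culture too, at a limma adjusted p of 0.0504 in CAL27 and 0.13 in A431, neither of which passed, although CAL27 passed with a robust variance prior (limma adjusted p = 0.0335). Relative to the non-targeting guides, S100A11 averaged -3.21 in SCC13 tumors, -2.18 in CAL27 tumors, -0.70 in A431 tumors, -1.08 in CAL27 culture and -0.76 in A431 culture. It was the lowest of the 8 genes in both culture sets. In SCC13 tumors S100A2 averaged -3.02 on that scale. Both genes held shared-difference values there, so no order of the 2 is read.

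S100A2, an S100 protein of basal keratinocytes that binds p53 and is a target of p63, was low in SCC13 tumors and near the median elsewhere. In SCC13 tumors it had a lowest value of -5.01, a median of -1.06 and a highest value of 1.18, and 13 of 16 tumors were below the median gene. Its mean there was -1.40 ± 1.64 log units (SD, n = 16, limma adjusted p = 0.00687). Of these 16 values 6 were shared-difference values, taken as bounds. In CAL27 tumors it ran from -1.39 to 1.65 around a mean of -0.04, and in A431 tumors from -0.34 to 0.63 around 0.13. Neither mean passed (limma adjusted p = 0.93 and 0.66). The cultures gave 0.09 and 0.24 in CAL27 and 0.35 and 0.12 in A431, all 4 of them slightly above the median gene. Measured from the control guides S100A2 passed as lower in CAL27 too, at -0.85 in tumors and -0.32 in culture (limma adjusted p = 0.0363 and 0.00401). On that scale 164 of all 327 genes were lower in CAL27 tumors and 293 in CAL27 culture. The culture value of S100A2 is thus a loss against control guides but not against the median gene. Without value column 3, the SCC13 means were -1.44 for S100A2 and -1.69 for S100A11.

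S100A7 (psoriasin), an antimicrobial and chemotactic protein released by inflamed skin, differed in direction from S100A11. Its knockout had a lowest value of -2.38, a median of 1.48 and a highest value of 6.06 in SCC13 tumors, and 13 of 16 tumors lay above the median gene. The mean of 1.48 ± 1.95 log units (SD, n = 16) passed the limma test (adjusted p = 0.00553). It was 1.64 without value column 3. In CAL27 tumors 8 of 10 lay above the median gene, between -0.46 and 1.60, with a mean of 0.48 (limma adjusted p = 0.21), and in A431 tumors 4 of 8 did, between -0.55 and 0.88, with a mean of 0.17 (limma adjusted p = 0.60). The cultures were at 0.08 and 0.15 in CAL27 and at 0.23 and 0.34 in A431. Relative to the non-targeting guides S100A7 averaged -0.14 in SCC13 tumors and did not pass (limma adjusted p = 0.80), so its height there is a height over the median library gene and not over control guides.

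S100A8 forms calprotectin with S100A9, a metal-binding alarmin of neutrophils and stressed keratinocytes. Its knockout was low in A431 tumors, where the 8 values were 0.49, -3.91, 0.06, -2.84, -1.28, -1.84, -1.13 and -1.04. The tumors divided into 6 that lay at -1.04 or lower and 2 just above the median gene. The mean was -1.44 ± 1.44 log units (SD, n = 8, limma adjusted p = 0.0212), the 18th lowest of 327 genes. The call was lost without value column 4, where the mean was -1.24 (limma adjusted p = 0.0597). The exact sign-flip permutation test gave an adjusted p of 0.117. It called 0 of 327 genes in A431 tumors, so it cannot decide on this call. In SCC13 tumors S100A8 had a lowest value of -4.18, a median of -0.36 and a highest value of 4.97, and in CAL27 tumors it ran from -2.05 to 1.62 with 5 of 10 below the median gene. The SCC13 mean was -0.51 and the CAL27 mean -0.29, and neither passed (limma adjusted p = 0.41 and 0.57). Without value column 3, which gave the SCC13 value of 4.97, the SCC13 mean was -0.88 (limma adjusted p = 0.11). Measured from the control guides both means passed as lower, at -2.13 in SCC13 and -1.11 in CAL27 (limma adjusted p = 0.000365 and 0.0285). So did 220 of all 327 genes in SCC13 and 164 in CAL27 tumors.

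The 2 cultures of a line disagreed more on S100A8 than on almost any other gene. CAL27 cultures gave 0.38 and -0.32, and A431 cultures gave 0.52 and -0.34, so that in each line 1 culture was high and the other low. The SD between cultures ranked 322 of 327 in CAL27 and 320 of 327 in A431, counted from the smallest, against a median gene SD of 0.09 and 0.13. Among A431 tumors its SD ranked 317 of 327. S100A9, the calprotectin partner, is also in the library. It averaged -0.57 in SCC13 tumors, 0.08 in CAL27 tumors, 0.11 in A431 tumors, -0.04 in CAL27 culture and 0.04 in A431 culture, and it passed in none of these fits. In A431 tumors S100A8 lay below S100A9 in 6 of 8 tumors, by a mean of -1.55 ± 2.04 log units (SD, n = 8). The same difference was 0.06 in SCC13 tumors, with 8 of 16 below 0, and -0.38 in CAL27 tumors, with 6 of 10 below 0. It was 0.07 in CAL27 culture and 0.05 in A431 culture. This pair was picked for its known complex after the values had been seen and was not tested.

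S100A14 and S100A16 are neighbours on chromosome 1. S100A16, a widely expressed S100 protein, was low in CAL27 and A431 tumors. Its 10 CAL27 tumors had a lowest value of -3.66, a median of -1.38 and a highest value of 0.70, with 3 tumors below -3.5 and 9 of 10 below the median gene. The mean was -1.68 ± 1.55 log units (SD, n = 10, limma adjusted p = 0.00281), the lowest of the 8 genes in that table. In A431 tumors it ran from -1.62 to 0.10 around a median of -0.69, with 7 of 8 tumors low and a mean of -0.68 ± 0.61 (SD, n = 8, limma adjusted p = 0.0448). That call is at the edge of the threshold. It was lost without value column 1 (-0.66, adjusted p = 0.0826), 2 (-0.54, 0.103), 3 (-0.74, 0.0504), 6 (-0.60, 0.0919), 7 (-0.69, 0.0739) or 8 (-0.62, 0.0916), all by limma. The exact sign-flip permutation test gave an adjusted p of 0.104, but that test called 0 of 327 genes in A431 tumors and cannot decide on this call. In SCC13 tumors S100A16 stood at the median gene, with a mean of 0.07 ± 1.16 (SD, n = 16, limma adjusted p = 0.90) and a spread that ranked 6 of 327 from the smallest. Against the control guides it averaged -1.55 there and passed (limma adjusted p = 0.0031), as did 220 of all 327 genes. The cultures gave -0.03 and 0.04 in CAL27 and 0.46 and 0.01 in A431.

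S100A14, an S100 protein of epithelia that has been found in complex with S100A16, was lower than the median gene at the threshold in none of the 5 sets. In SCC13 tumors it had a lowest value of -4.40, a median of 1.51 and a highest value of 6.92, and 12 of 16 tumors lay above the median gene. The mean of 1.27 ± 2.53 log units (SD, n = 16) passed (limma adjusted p = 0.0260), with a spread that ranked 318 of 327. The call did not hold without value column 3, which held the highest value (0.89, adjusted p = 0.129), nor without column 2 (1.23, 0.0503), 6 (1.09, 0.0696), 10 (1.18, 0.0501) or 15 (1.15, 0.0511), all by limma, nor by the exact sign-flip permutation test (adjusted p = 0.117). Measured from the non-targeting guides the SCC13 mean was -0.35 (limma adjusted p = 0.59). On that scale S100A14 passed as lower in CAL27 tumors at -1.25 and in CAL27 culture at -0.68 (limma adjusted p = 0.0105 and 4.7e-07). So did 164 of all 327 genes in CAL27 tumors and 293 in CAL27 culture, the latter from 2 cultures. In CAL27 tumors S100A14 averaged -0.44 with 8 of 10 tumors low, and in A431 tumors 0.53 with 4 of 8 high, and neither passed (limma adjusted p = 0.35 and 0.24). The A431 mean came from value columns 4 and 8, at 2.14 and 2.12, where S100A14 was the highest and the second highest of all 327 genes, while the other 6 tumors lay between -0.39 and 0.59. The cultures gave -0.28 and -0.11 in CAL27, and 0.005 and 0.27 in A431.

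ANXA2, a membrane-binding annexin that pairs with S100A10 and anchors plasminogen and its activator at the cell surface, went opposite ways in 2 lines. In SCC13 tumors it had a lowest value of -1.61, a median of 1.75 and a highest value of 3.46, with 13 of 16 tumors above the median gene and 3 below. The mean was 1.45 ± 1.56 log units (SD, n = 16, limma adjusted p = 0.00507), and 1.36 without value column 3. In CAL27 tumors all 10 values were below the median gene, between -1.76 and -0.23 with a median of -0.86. The mean there was -0.99 ± 0.47 (SD, n = 10, limma adjusted p = 0.0067), and the spread was the 5th smallest of 327. In A431 tumors ANXA2 ran from -0.60 to 0.82 around a mean of -0.03 (limma adjusted p = 0.94). The cultures gave -0.14 and -0.22 in CAL27 and 0.01 and 0.51 in A431. On the scale of the non-targeting guides the SCC13 mean was -0.17 and did not pass (limma adjusted p = 0.76), while the CAL27 mean was -1.81.

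S100A10, the S100 partner of ANXA2 and also in the library, did not pass in any table. Its means were 0.31 in SCC13 tumors, -0.50 in CAL27 tumors, 0.20 in A431 tumors, -0.13 in CAL27 culture and -0.10 in A431 culture. ANXA2 lay above S100A10 in 12 of 16 SCC13 tumors, by a mean of 1.14 ± 2.28 log units (SD, n = 16), and in 5 of 10 CAL27 tumors, by a mean of -0.49 ± 2.04 (SD, n = 10). The same difference was -0.23 in A431 tumors, -0.05 in CAL27 culture and 0.37 in A431 culture. These values were picked after the data had been seen and carry no test.

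ANXA5, the annexin that binds phosphatidylserine and is used to stain dying cells, passed as higher than the median gene in both cultures and in no tumor set, although the difference between tumors and culture did not pass in either line, as given further on. The A431 cultures gave 0.60 and 0.81, ranks 321 and 327 of 327, and the CAL27 cultures gave 0.36 and 0.39, ranks 301 and 309. The mean was 0.38 ± 0.02 log units in CAL27 and 0.71 ± 0.15 in A431 (SD, n = 2 each), and both passed the limma test (adjusted p = 0.0402 and 0.0324). With 2 cultures a line, these calls lean on the spread pooled over genes. Relative to the non-targeting guides the mean was -0.11 in CAL27 (adjusted p = 0.30) and 0.34 in A431 (adjusted p = 0.0687), neither of which passed in limma. The A431 call was also lost when columns were scaled by their SD (limma adjusted p = 0.0503). In SCC13 tumors ANXA5 had a lowest value of -4.17, a median of 0.44 and a highest value of 3.37. It ran from -2.75 to 1.60 in CAL27 tumors and from -1.74 to 0.89 in A431 tumors. The 3 means of 0.15, -0.18 and -0.45 did not pass (limma adjusted p = 0.83, 0.74 and 0.27). Set against the control guides, the SCC13 mean was -1.47 and the CAL27 mean -0.99, and both passed as lower (limma adjusted p = 0.00779 and 0.0280). So did 220 of all 327 genes in SCC13 and 164 in CAL27 tumors. Without CAL27 value column 7 the centred CAL27 mean was 0.11.

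**Figure D2:**
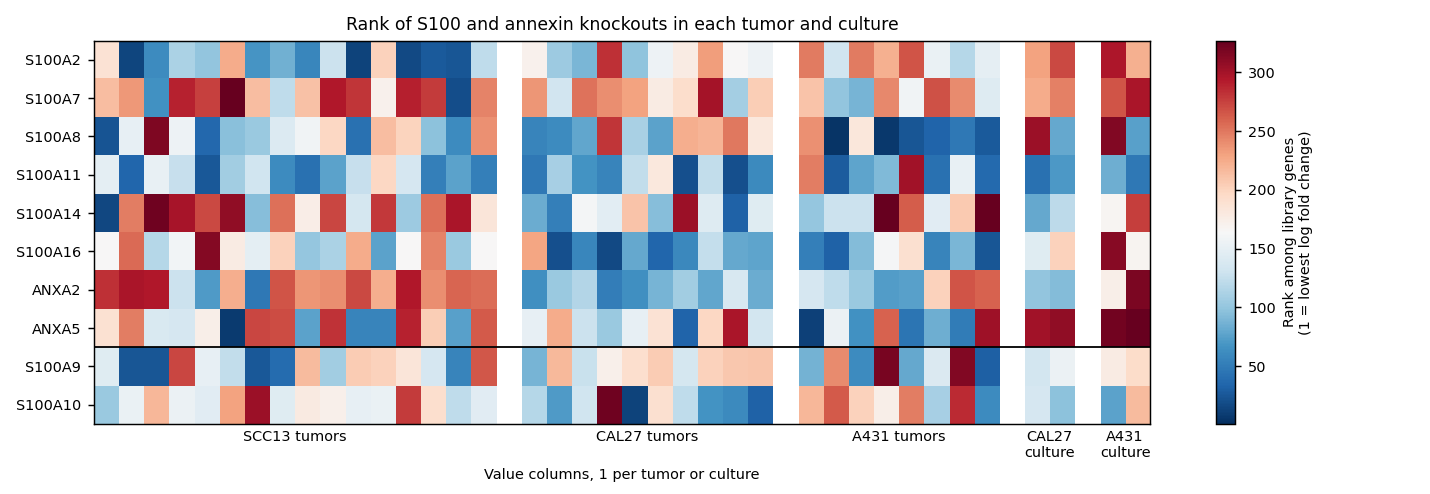
Rank of each member, and below the black line of S100A9 and S100A10, among the 327 library genes in every value column (1 column per tumor or culture, grouped by set, 1 = lowest log fold change, blue low and red high). S100A11 is blue in most columns of every set, S100A16 is blue in most CAL27 and A431 tumors (9 of 10 and 7 of 8 below the median gene), and ANXA5 is red in the 4 cultures, at ranks 301 to 327.

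Tumors were then set against culture of the same line, which asks whether a knockout behaves otherwise in an animal than in a dish. Tumors grew for about 2 months and cultures for 3 weeks, and each set has initial samples of its own, so setting, time and initial samples cannot be told apart. No member passed in either line in a limma fit with 1 spread for both settings, and 0 members had an unadjusted p under 0.05. Neither did any other gene, so 0% of the library was lower and 0% higher in A431, and again 0% and 0% in CAL27, while 7 and 13 genes in A431 and 10 and 20 in CAL27 had an unadjusted p under 0.05. S100A16 was below the mean of its cultures in all 8 A431 tumors and in 9 of 10 CAL27 tumors, and the differences were -0.91 (95% interval -1.90 to 0.08) in A431 and -1.68 (-3.73 to 0.37) in CAL27. ANXA5 was below that mean in 7 of 8 A431 tumors, with a difference of -1.15 (-2.39 to 0.09), and ANXA2 in 10 of 10 CAL27 tumors, with a difference of -0.81 (-2.09 to 0.46). S100A8 was below it in 7 of 8 A431 tumors, with a difference of -1.53 (-3.36 to 0.31). The limma adjusted p was 0.81 for each of the A431 differences named here, and 0.73 and 0.75 for S100A16 and ANXA2 in CAL27.

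Tumors varied more than cultures, with a median gene SD of 1.79 in SCC13 tumors, 1.09 in CAL27 tumors and 0.62 in A431 tumors, against 0.09 in CAL27 culture and 0.13 in A431 culture. A fit that gave each setting its own spread ended differently, with 11 genes lower and 14 higher in A431, and 47 and 54 in CAL27. There ANXA5 was lower in A431 tumors than in A431 culture (limma adjusted p = 0.0428), and S100A16 and ANXA2 were lower in CAL27 tumors than in CAL27 culture (adjusted p = 0.00972 and 0.0416). ANXA5 differed by -0.55 (-2.24 to 1.14) in CAL27, at a limma adjusted p of 0.94 with 1 spread and 0.30 with an own spread. In A431, S100A16 and S100A8 came to adjusted p = 0.060 and 0.0768 in that fit. S100A11 differed by -0.02 (-1.31 to 1.27) in A431 and by -0.77 (-2.46 to 0.92) in CAL27, intervals wide enough to hold both no difference and a change as large as its own loss in tumors. The other differences were -0.11 for S100A2, -0.12 for S100A7, 0.39 for S100A14 and -0.29 for ANXA2 in A431. In CAL27 they were -0.20 for S100A2, 0.36 for S100A7, -0.32 for S100A8 and -0.25 for S100A14, and all of these intervals held 0.

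Between lines, 2 members differed in tumors. ANXA2 averaged 1.45 in SCC13 tumors and -0.99 in CAL27 tumors, a difference of 2.44 log units (95% interval 1.38 to 3.51, limma adjusted p = 0.000581), and 14 of 16 SCC13 tumors lay above the CAL27 mean. S100A16 averaged 0.07 in SCC13 tumors and -1.68 in CAL27 tumors, a difference of 1.75 (0.66 to 2.83, limma adjusted p = 0.0177), with 15 of 16 SCC13 tumors above the CAL27 mean. These 2 of 8 stand beside 9.79% of all genes that were higher in SCC13 than in CAL27 tumors, and 0 of 8 beside 7.95% that were lower. The S100A16 difference was 1.52 without CAL27 value column 4 and 1.53 without column 6 (limma adjusted p = 0.0505 and 0.0510), and 0.94 relative to the non-targeting guides (adjusted p = 0.27). The ANXA2 difference passed in all 38 alternatives run, at limma adjusted p from 9.91e-05 to 0.0251. S100A14 and S100A2 missed the threshold in this contrast, at differences of 1.71 (0.35 to 3.06) and -1.37 (-2.46 to -0.27) and limma adjusted p of 0.0669 and 0.0699. Of 34 fits that left out 1 tumor, 3 called S100A14 and 3 called S100A2. S100A14 passed without SCC13 value column 1 (2.09, adjusted p = 0.0144) or 7 (1.87, 0.0424) or CAL27 column 7 (2.00, 0.0383), and S100A2 passed without SCC13 column 1 (-1.52, 0.0348), 6 (-1.54, 0.0367) or 12 (-1.51, 0.0417). Without SCC13 value column 3 S100A14 differed by 1.33 (limma adjusted p = 0.123). Measured from the control guides S100A14 differed by 0.90 (limma adjusted p = 0.459), and S100A2 by -2.17, which passed (adjusted p = 0.00599). On that scale 68 of all genes were lower. The other differences were 1.01 for S100A7, 0.32 for ANXA5, -0.22 for S100A11 and -0.22 for S100A8, at limma adjusted p from 0.23 to 0.87.

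SCC13 tumors set against A431 tumors gave 0 members past the threshold in limma, where 10.4% of all genes were higher and 10.7% were lower. At an unadjusted p under 0.05 there were 3 members, beside 52 of all 327 genes higher and 47 lower. This contrast shares the SCC13 tumors with the one above. The nearest were S100A2, at -1.40 in SCC13 and 0.13 in A431 (difference -1.54, 95% interval -2.71 to -0.36, limma adjusted p = 0.0524), and ANXA2, at 1.45 and -0.03 (difference 1.48, 0.34 to 2.62, adjusted p = 0.0554). S100A7 differed by 1.32 (0.07 to 2.56, limma adjusted p = 0.13). With an own spread per line all 3 passed (limma adjusted p = 0.00832, 0.00904 and 0.0352), beside 41 of all genes lower and 50 higher. Leaving out 1 SCC13 tumor also carried S100A2 over the threshold (column 1, 3, 6, 10 or 12, differences of -1.69, -1.57, -1.71, -1.58 and -1.67), likewise ANXA2 (column 4, 5 or 7, differences of 1.62, 1.68 and 1.68) and S100A7 (column 15, a difference of 1.57). Measured from the control guides the ANXA2 and S100A7 differences were 0.14 and -0.03 (limma adjusted p = 0.86 and 0.97), while S100A2 and S100A11 passed as lower, at -2.88 and -2.51 (adjusted p = 0.000389 and 0.00167). On that scale 121 of all genes were lower. The centred difference of S100A11 was -1.17 (-2.36 to 0.02, limma adjusted p = 0.17). S100A8 differed by 0.93, S100A16 by 0.75, S100A14 by 0.74 and ANXA5 by 0.59, and none of these passed (limma adjusted p from 0.39 to 0.59). With columns scaled by their SD, S100A8 passed as higher and S100A2 as lower (limma adjusted p = 0.0337 and 0.0367). That fit called 25 of all genes higher and 19 lower. Without SCC13 value column 3 the S100A8 and S100A14 differences were 0.56 and 0.36.

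CAL27 tumors against A431 tumors gave 0 members higher, beside 0.306% of all genes, and 0 lower, beside 3.06%, and 0 members with an unadjusted p under 0.05 in limma. The largest differences were 1.14 for S100A8 (95% interval -0.39 to 2.68) and -0.998 for S100A16 (-2.27 to 0.27), at limma adjusted p of 0.49 and 0.48. The others were -0.97 for S100A14, -0.96 for ANXA2, -0.94 for S100A11, 0.31 for S100A7, 0.27 for ANXA5 and -0.17 for S100A2 (limma adjusted p from 0.49 to 0.96). In culture all 8 members averaged lower in CAL27 than in A431, by 0.06 to 0.44 log units, and none passed or had an unadjusted p under 0.05 in limma, beside 0.306% of all genes higher and 2.75% lower. Of all 327 genes 174 were lower on average in that contrast. The widest gap was that of ANXA2, at -0.18 in CAL27 culture and 0.26 in A431 culture (difference -0.44, -0.91 to 0.02, limma adjusted p = 0.23). The others were -0.33 for S100A14, -0.33 for ANXA5, -0.23 for S100A16, -0.20 for S100A11, -0.17 for S100A7, -0.08 for S100A2 and -0.06 for S100A8, at limma adjusted p from 0.22 to 0.95.

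**Figure D3:**
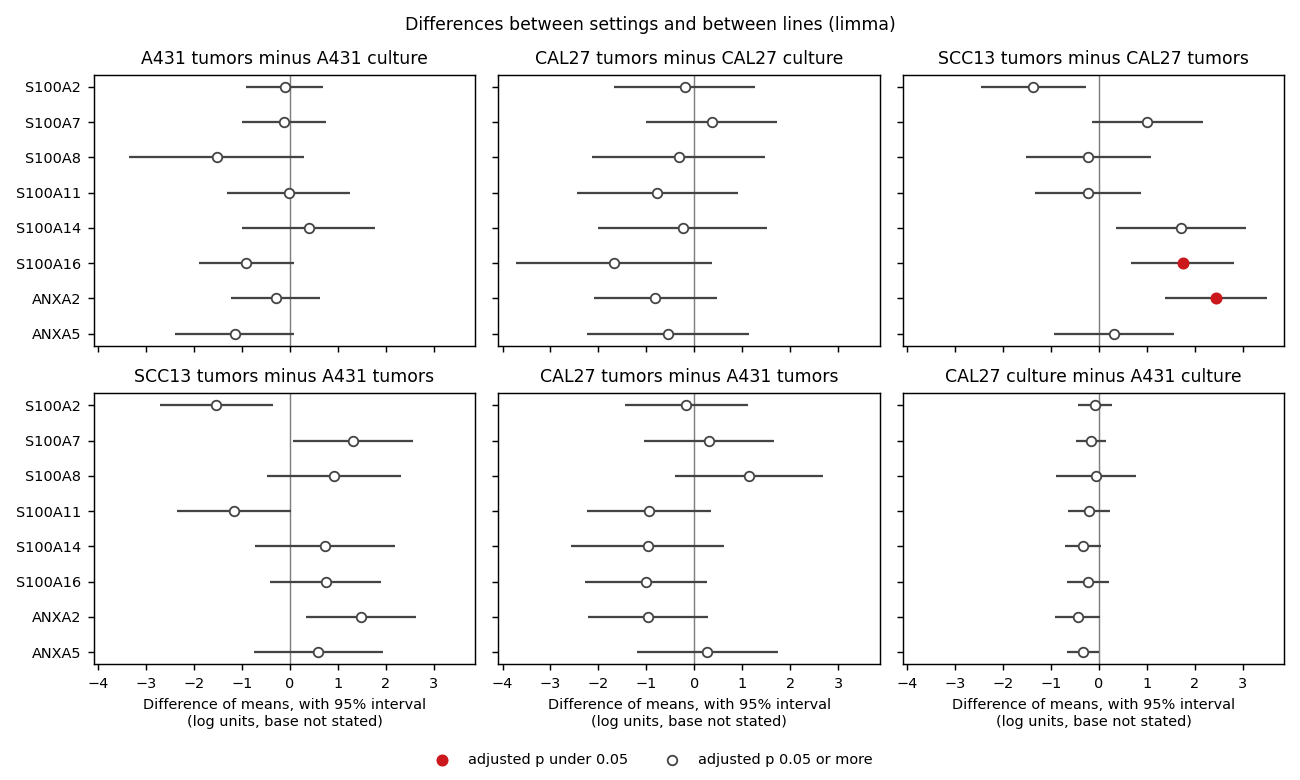
Difference of means with its 95% interval from limma (log units, base not stated) for each member in 6 contrasts between settings or lines. Filled red points have an adjusted p under 0.05 over all 327 genes, and they are ANXA2 and S100A16 in SCC13 tumors minus CAL27 tumors.

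Members were also compared with each other inside the same tumor, where shifts of a whole column cancel. The 4 pairs were tested in 3 tumor sets by an exact two-sided sign-flip permutation test, 12 tests in all, and none passed after Benjamini-Hochberg adjustment over these 12. S100A14 lay above S100A16 in 8 of 8 A431 tumors, by 0.13 to 3.20 log units with a mean of 1.21 ± 1.03 (SD, n = 8), at an exact p of 0.00781, which is the smallest that 8 tumors can give (adjusted p = 0.0938). The same difference averaged 1.20 ± 2.93 in SCC13 tumors (10 of 16 above 0, exact p = 0.124) and 1.23 ± 1.81 in CAL27 tumors (8 of 10, exact p = 0.0605), with adjusted p of 0.149 and 0.104. Without SCC13 value column 3 the SCC13 difference was 0.79 (exact test, adjusted p = 0.293). In culture it was -0.20 in CAL27 and -0.10 in A431.

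S100A8 lay below S100A7 by a mean of -1.99 ± 3.27 log units in SCC13 tumors (12 of 16, exact p = 0.0280), -0.77 ± 1.34 in CAL27 tumors (7 of 10, exact p = 0.109) and -1.60 ± 1.45 in A431 tumors (6 of 8, exact p = 0.0313), and the adjusted p was 0.0938, 0.146 and 0.0938. Without SCC13 value column 3 the first of these was -2.51 (exact test, adjusted p = 0.0154). S100A11 lay below S100A2 by -1.33 ± 1.43 in CAL27 tumors (7 of 10, exact p = 0.0195, adjusted p = 0.0938) and by -0.55 ± 0.71 in A431 tumors (6 of 8, exact p = 0.0703, adjusted p = 0.105). In SCC13 tumors the mean difference was -0.19 ± 1.68 (SD, n = 16), but both genes had shared-difference values in 6 of 16 tumors and S100A11 alone in 5. The difference there compares values taken as bounds, in 5 of the 6 tumors with a value above 0, so no order of these genes is read from SCC13. In the 5 tumors with neither gene at such a value S100A11 was the lower in 4. In the other pairs 1 gene had such values in 5 SCC13 tumors (S100A8) or 4 (S100A16 and ANXA5). In culture S100A11 was lower than S100A2 by 0.87 and 0.66 log units in CAL27 and by 0.60 and 0.67 in A431, in all 4 cultures, a comparison for which 2 cultures allow no exact p below 0.5.

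The 2 annexins had no common order. ANXA5 lay below ANXA2 by -1.30 ± 2.53 log units in SCC13 tumors (10 of 16, exact p = 0.0587) and by -0.42 ± 1.06 in A431 tumors (5 of 8, exact p = 0.281), while in CAL27 tumors it lay above ANXA2 by 0.82 ± 1.14 (9 of 10, exact p = 0.0566). The adjusted p was 0.104, 0.307 and 0.104. Without CAL27 value column 7 the CAL27 difference was 1.13 (exact test, adjusted p = 0.0469). In culture ANXA5 was above ANXA2 in 4 of 4, by 0.50 and 0.61 in CAL27 and by 0.58 and 0.30 in A431.

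**Figure D4:**
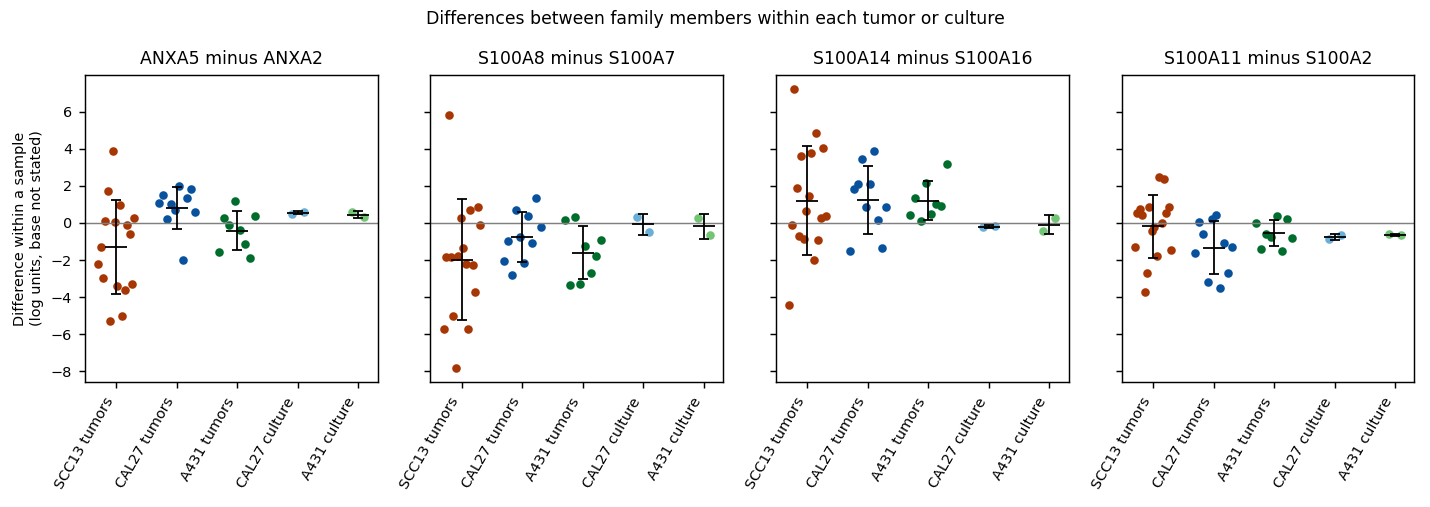
Difference between 2 members within each tumor or culture (log units, base not stated) for 4 pairs, with the mean and SD as black bars. S100A14 minus S100A16 is above 0 in 8 of 8 A431 tumors, and S100A11 minus S100A2 is below 0 in 4 of 4 cultures.

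All 6 S100 members sit on chromosome 1, in a stretch of 61 protein-coding genes from S100A10 to S100A14 by the RefSeq order, of which 8 are in the library, all of them S100 genes. ANXA2 lies on chromosome 15 and ANXA5 on chromosome 4. Over the 8 S100 genes of this stretch, the means ran from -1.59 to 1.48 in SCC13 tumors, from -1.68 to 0.48 in CAL27 tumors, from -1.44 to 0.53 in A431 tumors, from -0.60 to 0.16 in CAL27 culture and from -0.40 to 0.28 in A431 culture. Their medians were -0.22, -0.37, 0.12, -0.02 and 0.11. Neighbouring genes thus took values on both sides of the median gene in all 5 sets. The direct neighbours S100A10 and S100A11 stood at 0.31 and -1.59 in SCC13 tumors, and S100A2, S100A16 and S100A14, which follow each other, at -1.40, 0.07 and 1.27.

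The genes whose tumor-to-tumor deviations were most like those of a member were not other members. Over the 34 tumors, with each gene's mean within its set removed, ANXA2 was most like CDKN2B, a cyclin-dependent kinase inhibitor gene (Pearson r = 0.71, n = 34), with r of 0.78 among the SCC13, 0.24 among the CAL27 and -0.28 among the A431 tumors. S100A14 was most like SREBF1 (r = 0.62), S100A2 like DST (0.59), S100A8 like CKS1B (0.58), ANXA5 like MAX (0.58), S100A7 like EMP2 (0.57), S100A11 like MCM7 (0.54) and S100A16 like TGFBI (0.50). Each is the highest of 326 correlations, the columns share their initial samples and the wide SCC13 spread weighs most, so these are descriptions only. In SCC13, CAL27 and A431 tumors, r was 0.76, 0.04 and 0.15 for S100A11 with MCM7. It was 0.65, 0.23 and -0.06 for ANXA5 with MAX, and 0.49, 0.52 and 0.59 for S100A16 with TGFBI. S100A11 had shared-difference values in 11 of 16 SCC13 tumors. Among the members themselves the highest value was that of S100A8 with S100A14 (r = 0.49).

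Of the lists drawn up for related genes, few entries were in the library. The 4 measured calcium sensors of 10 listed were CALML3, CALM2, CALM3 and VSNL1. CALML3, a calmodulin-like protein of epithelia, was higher in tumors of all 3 lines, at 2.92 in SCC13, 1.38 in CAL27 and 0.96 in A431 (limma adjusted p = 5.21e-08, 0.00704 and 0.00264), and CALM3 was higher in CAL27 tumors at 0.94. VSNL1 was higher in CAL27 culture at 0.59. Of 13 listed receptors and partners 4 were measured. TP63, the squamous transcription factor upstream of S100A2, was lower in all 5 sets, at -1.89 in SCC13 tumors, -2.55 in CAL27 tumors, -2.79 in A431 tumors, -1.02 in CAL27 culture and -1.30 in A431 culture. The caveolin CAV1 was higher in tumors of all 3 lines, the desmosomal cadherin DSG1 in SCC13 and CAL27 tumors and in CAL27 culture, and the protease PLAU passed in none. Of 14 antimicrobial and alarmin genes 3 were measured. The defensin DEFB1 was higher in SCC13 tumors at 2.78, HMGB1 in CAL27 tumors at 1.26 and HMGB2 in CAL27 culture at 0.46. All calls on these listed genes are relative to the median gene. Measured from the control guides 0 of 327 genes were higher in CAL27 culture, so the VSNL1, DSG1 and HMGB2 calls there did not hold. On that scale 13 genes were higher in SCC13 tumors, 18 in CAL27 tumors and 7 in A431 tumors. None of the 20 listed cornified envelope genes was in the tables.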

How the data were processed

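Guide abundance was measured in 48 samples in 10 groups, 10 initial and 38 later ones. Bowtie2 is named, per the submitters' processing notes. Its version, the genome build, how guides were summarised per gene, any pseudocount and the log base are stated nowhere in these sources. The deposited files are 1 table per set with a log fold change per gene and column, relative to the non-targeting guides, whose row was 0 in every column. The series design names 334 genes and 136 non-targeting guides, and 327 genes were analysed. Columns carry no replicate numbers, equalled the later samples of a group in number, and were mapped to the group only. No 2 columns of a table were identical.

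Columns were centred on their median over genes and fitted with limma 3.58.1 in R 4.3.3 (lmFit, eBayes), with 1 fit per table against 0, 1 per line for tumors against culture, 1 for the tumors of 3 lines and 1 for the cultures. P-values were adjusted by Benjamini-Hochberg over all 327 genes at 0.05. Fits across tables assume a common log base. The error of the initial samples enters no test. Pairs of members were tested by exact sign-flip permutation. The scripts were tested on simulated data. Alternatives were the deposited values, columns scaled by their SD, a robust prior, an own spread per table, sign-flip tests, medians and leaving out columns.

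The members, gene lists and tests were chosen with earlier results of these data known. All 8 members are named in each comparison; for likeness the library gene with the highest correlation is named, and from the lists up to 3 genes past the threshold at either end. RefSeq (GRCh38.p14) gave chromosomes and gene order only, since the files name no build, and 310 of 327 names matched it. No guide or protein sequences were used here.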

Additional observations from a re-analysis of the deposited data

Results flagged for a closer look

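ANXA2 and S100A16 differed between the tumors of 2 lines by a test of the difference itself. ANXA2 stood 2.44 log units higher in SCC13 than in CAL27 tumors (limma adjusted p = 0.000581), and S100A16 stood 1.75 higher (adjusted p = 0.0177). The ANXA2 difference passed in 38 of 38 alternatives and the S100A16 difference in 35 of 38. Relative to the non-targeting guides the S100A16 difference did not pass (limma adjusted p = 0.27). In culture, both CAL27 values and both A431 values lay on opposite sides of the median gene for ANXA2 (difference -0.44, CAL27 minus A431) and for S100A14 (difference -0.33), and neither difference passed the limma test (adjusted p = 0.23 and 0.25). No single tumor was flagged by Dixon's gap test in the 16 member sets of 8 or 10 tumors that it covers. The nearest in CAL27 tumors were ANXA5 and S100A14, at gaps of 0.463 and 0.455 of the range against a cutoff of 0.466. A single gap cannot see 2 extreme tumors that lie together, such as S100A14 at 2.14 and 2.12 in A431 value columns 4 and 8. SCC13, with 16 tumors, was not tested that way.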

How the results depend on the processing

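Centring changed calls in the fits against initial cells and between tumors of different lines, and 0 calls in tumors minus culture. With the deposited values, which are relative to the non-targeting guides, 5 members were lower and 0 higher in SCC13 tumors, 7 lower in CAL27 tumors, 7 lower and 0 higher in CAL27 culture, and 1 lower and 0 higher in A431 culture. The sign turned in SCC13 tumors for S100A7 (-0.14), S100A14 (-0.35), S100A16 (-1.55), ANXA2 (-0.17) and ANXA5 (-1.47), and in CAL27 culture for S100A2 (-0.32), S100A7 (-0.37), S100A8 (-0.45), S100A16 (-0.48) and ANXA5 (-0.11), each with a call before or after. Centring subtracts the column median, and the median gene lies below the non-targeting guides in all but 1 of the 38 columns. Between lines the deposited values gave 2 members lower in SCC13 than in A431 tumors, and 1 lower and 1 higher in SCC13 than in CAL27 tumors. Columns scaled by their SD gave 0 members higher in A431 culture, and 1 lower and 1 higher in SCC13 than in A431 tumors. An own spread per table gave 1 member lower in A431 tumors than culture and 2 lower in CAL27 tumors than culture. It gave 1 lower and 2 higher in SCC13 than in A431 tumors, beside 41 and 50 of all genes. A robust prior gave 1 lower in CAL27 culture, beside 72 of all genes. The exact sign-flip permutation test gave 0 lower in A431 tumors, where it called 0 of 327 genes, since 8 tumors allow no p below 0.00781. The cause of these changes in calls was not tested. With 1 tumor left out, members lower in A431 tumors numbered 1 to 2, lower and higher in SCC13 than A431 tumors 0 to 1 each, lower in SCC13 than CAL27 tumors 0 to 1, and higher there 1 to 3. S100A8 minus S100A7 ranged from -2.51 to -1.60 and S100A11 minus S100A2 from -0.36 to 0.051 in SCC13 tumors (median in place of mean 0.19), and ANXA5 minus ANXA2 from 0.69 to 1.13 in CAL27 tumors. Of the 14 member calls, 13 held with scaled columns, 14 with a robust prior and 8 with deposited values. By the sign-flip test 7 of the 10 in tumors held. The 2 in A431 tumors did not, where that test called 0 of 327 genes. Of 198 refits that left out 1 column, 184 kept the calls, counting for the 2 calls in culture a lone value with no test. Counts over all genes moved too. With deposited values 220 genes were lower and 13 higher in SCC13 tumors (78 and 77 when centred), 164 and 18 in CAL27 tumors (72 and 61), 73 and 7 in A431 tumors (39 and 26), 293 and 0 in CAL27 culture (61 and 16) and 136 and 1 in A431 culture (37 and 7). Scaled columns gave 10 higher in CAL27 culture and 2 in A431 culture. For tumors minus culture, 0 and 0 became 11 and 14 in A431 and 47 and 54 in CAL27 with an own spread, and 5 and 11 in A431 and 0 and 8 in CAL27 with scaled columns. CAL27 minus A431 tumors (10 and 1) became 48 and 28 with an own spread, 20 and 11 with scaled columns and 24 and 1 with deposited values, and in culture (9 and 1) it became 1 and 1 with scaled columns, 21 and 1 with deposited values and 14 and 2 with a robust prior. SCC13 minus A431 tumors (35 and 34) became 121 and 5 with deposited values and 19 and 25 with scaled columns, and SCC13 minus CAL27 tumors (26 and 32) became 68 and 12 with deposited values. No paired analysis was possible because the columns carry no replicate numbers. Depth is unknown, and shared-difference values are taken to bound the loss from 1 side only.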
